A study of Homo sapiens with 24 samples.

Results

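The 4 HOX clusters were followed in open chromatin of LNCaP prostate cancer cells and of RES-A, a subline of LNCaP that grows in the androgen receptor antagonist enzalutamide (ENZ). Members were chosen by position alone: every peak of the 24 deposited lists that overlapped, in hg19, chr7:27120000-27260000 (HOXA), chr17:46600000-46780000 (HOXB without HOXB13), chr12:54320000-54460000 (HOXC) or chr2:176940000-177060000 (HOXD). These windows held 1772 of the 4663440 deposited peaks, 534 of them in HOXA, 393 in HOXB, 684 in HOXC and 161 in HOXD. To compare lists of unequal length, the 50000 peaks with the strongest −log10 p were taken from each list (top-ranked peaks below) and merged across lists into 119410 regions, of which 48 lay in the HOX windows (16 in HOXA, 13 in HOXB, 17 in HOXC and 2 in HOXD).

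The assay was FAIRE-seq: cells are crosslinked with formaldehyde, DNA that carries few nucleosomes is extracted and sequenced, and a peak in the reads marks open chromatin. Before treatment, cells of both sublines grew in medium with charcoal-stripped serum, which is poor in androgens, and the medium of RES-A alone contained ENZ. For the next 18 h each subline was given the vehicle DMSO, the androgen DHT (dihydrotestosterone) at 10 nM, ENZ at 10 µM, or the combination (DHT+ENZ), with 3 libraries described as biological replicates in each of the 8 groups. RES-A was derived from LNCaP by growth in rising ENZ, so a RES-A library labelled DMSO comes from cells that had met ENZ before, and the subline difference rests on 1 derived line. The identity of the cells was not checked against LNCaP marker genes, since no gene positions of the build of the lists were used.

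HOX genes encode homeodomain transcription factors that give cells of the embryo their position along the body axis. They lie in clusters in which the order of the genes follows the order of their domains along the axis, with low-numbered members active in anterior and high-numbered members in posterior tissue. Polycomb complexes keep silent parts of a cluster compact and trithorax complexes keep active parts open, and prostate tissue, which arises at the posterior end of the axis, keeps the use of posterior HOX genes in adult life. By the gene order of RefSeq on GRCh38.p14, coordinates rise toward HOXA13 in HOXA and from HOXB1 to HOXB9 in HOXB, but run from HOXC13 to HOXC4 and from HOXD13 to HOXD1. Gene positions of hg19 were not used here, so regions are named by cluster and by the distance in kb of their centre from the start of the window. The side named for a region is that of the window. It does not place the region at, between or beyond the genes.

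The lists held 72950 to 274578 peaks. The local background recovered from pileup and fold enrichment, a measure of depth, ran from 0.406 to 5.99 reads per base, and was under 1 in 2 libraries, LNCaP DHT replicate 1 and LNCaP ENZ replicate 1. These 2 lists held 29 and 30 peaks in the HOX windows, while the other 22 held 54 to 102. The numbers of top-ranked peaks overlapped, with 17 to 21 in the 2 shallow lists and 16 to 27 in the others. Their coverage did not, since top-ranked peaks covered 0.627 and 0.664% of the 4 windows together in the shallow libraries and 0.995 to 1.66% in the other 22. Depth and subline were not balanced, since both shallow libraries were LNCaP.

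The clusters differed in how much of them was open, and HOXC was the most open in every library. Top-ranked peaks covered 2.63% ± 0.53 of the HOXC window (SD, n = 24 libraries), 1.27% ± 0.403 of HOXA, 0.975% ± 0.275 of HOXB and 0.135% ± 0.212 of HOXD. The genome as a whole was covered to 0.632% ± 0.1. HOXC was above HOXA by 1.36 percentage points and above HOXB by 1.66 in 24 of 24 libraries, and HOXD was the lowest in 24 of 24 (sign-flip permutation test over libraries, p = 1e-05, the smallest the 100000 resamples can give, adjusted p = 1.2e-05 for each pair). HOXA was above HOXB by 0.299 in 20 of 24 libraries (permutation test, p = 0.00016, adjusted p = 0.00016), and this order turned when only the 25000 strongest peaks were used (−0.13, adjusted p = 0.0967).

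**Figure D1:**
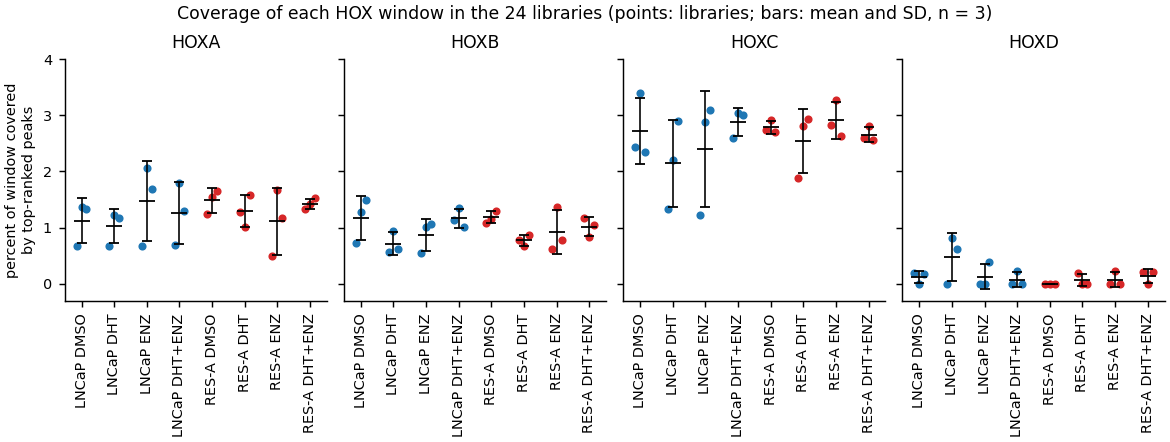
Percent of each HOX window covered by the 50000 top-ranked peaks (vertical axis) in the 8 groups (horizontal axis). Points are libraries (blue LNCaP, red RES-A), bars are mean and SD of 3. HOXC lies highest in every library, and HOXD is at 0 in many.

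The difference between clusters also showed against their surroundings. The 1 Mb on each side of HOXC was covered to 1.77% ± 0.3, less than HOXC itself, whereas the flanks of HOXB (1.4% ± 0.236) and HOXD (0.534% ± 0.118) were covered more than those clusters. HOXA (flanks 1.26% ± 0.262) differed from its flanks by less than the SD between libraries. These differences from the flanks were not tested. Of all deposited HOXC peaks, 36.8% were top-ranked, against 20.6% in HOXA, 26.2% in HOXB, 7.45% in HOXD and 25.7% over the genome.

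A minority of the regions were top-ranked in every library. Of the 48 regions, 7 (14.6%) were top-ranked in all 24 libraries, compared with 10.6% of regions over the genome, and 11 (22.9%) were top-ranked in 1 library only, compared with 22.1%. HOXC held 4 of the 7, HOXB 2, HOXA 1 and HOXD 0. A deposited peak of any rank was present in all 24 lists at 13 of the 48 regions (27.1%, compared with 24.3% over the genome). It was present in at least 20 lists at 35 of the 48, compared with 82123 of the 119410 regions of the genome.

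In HOXC the steady regions were at 12.3 kb (chr12:54331902-54332753), nearest to the HOXC13 side, at 53.0 kb (chr12:54372689-54373229), at 90.6 kb (chr12:54410343-54410809) and at 126.0 kb (chr12:54445772-54446275), nearest to the HOXC4 side. Their mean fold enrichment over local background, the ratio the peak caller reports, was 12.1, 12.3, 12.7 and 10.3. At 90.6 kb the LNCaP libraries ran from 5.54 through a median of 11 to 14.8. The lowest value came from the shallow LNCaP ENZ replicate 1. Steady regions therefore lay along the whole length of the HOXC window, on the side of the posterior genes as well as on that of the anterior ones.

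In HOXB the steady regions were at 149.3 kb (chr17:46748995-46749570; mean fold 10.6), on the HOXB9 side of the window, and at 96.1 kb (chr17:46695845-46696323; 10.3), near its middle. The region at 24.8 kb (chr17:46624375-46625142), on the HOXB1 side, was top-ranked in 20 libraries with a mean fold of 8.01. HOXA had 1 steady region, at 95.0 kb (chr7:27214821-27215208; 9.6), toward the HOXA13 side, followed by 54.3 kb (chr7:27174084-27174605), top-ranked in 21 libraries. HOXD had none, and its best region, at 52.0 kb (chr2:176991802-176992259), was top-ranked in 10 libraries although a deposited peak lay there in 23.

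**Figure D2:**
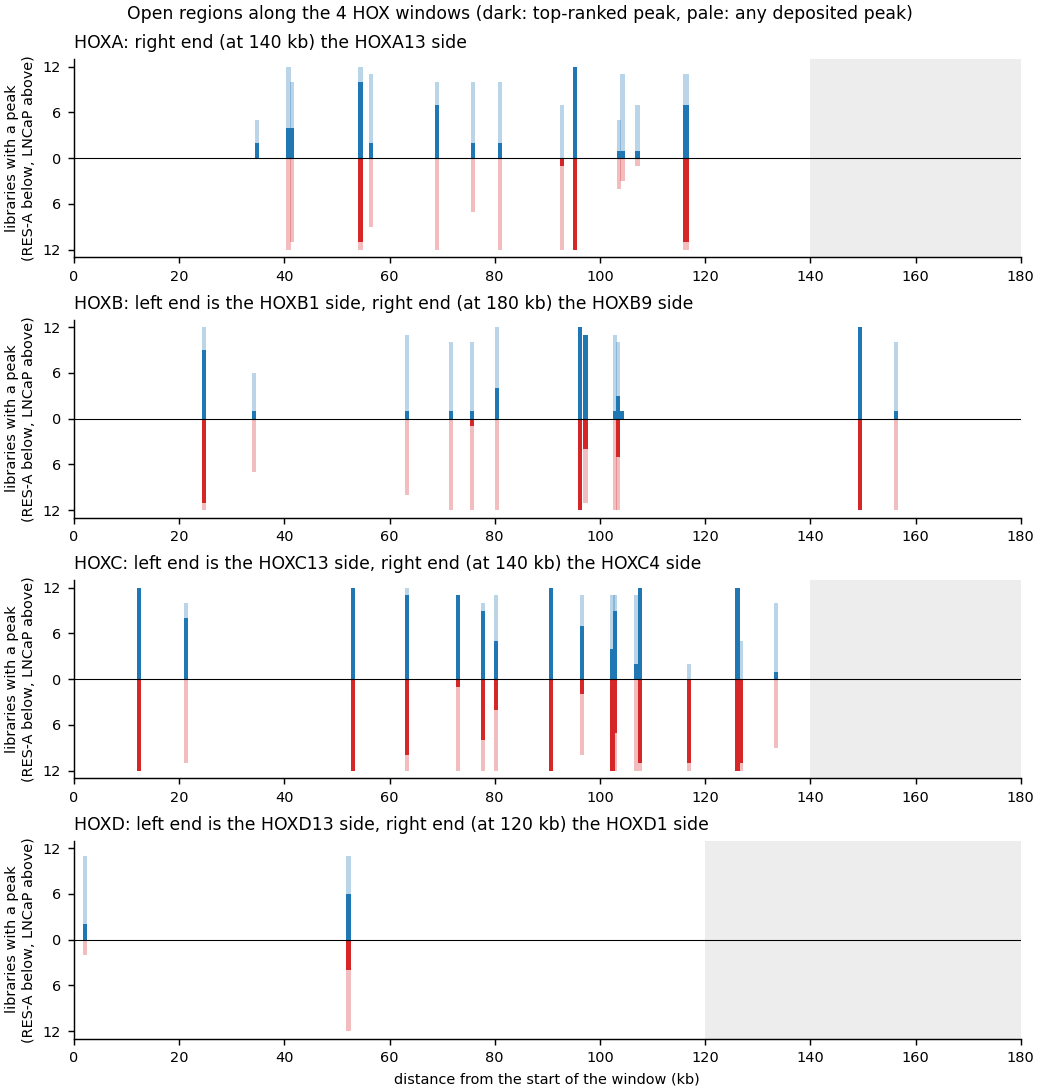
Positions of 46 of the 48 regions along their windows (horizontal axis, kb from the window start) against the number of libraries with a peak there, LNCaP upward and RES-A downward. Dark bars count top-ranked peaks and pale bars any deposited peak; grey marks the space beyond the window, and 2 regions of HOXA are not drawn. Full dark bars on both sides mark regions such as HOXC 12.3, 53.0, 90.6 and 126.0 kb, and HOXC 116.7 and 126.7 kb have dark bars on the RES-A side only.

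Between the open regions lay long closed stretches. No list had a peak of any rank over 85.9% of the HOXA window, 92.6% of HOXB, 88.7% of HOXC and 95.9% of HOXD. Intervals of at least 5000 bp without a peak in any of the 24 lists numbered 6 in HOXA (29.6% of the window), 12 in HOXB (60.5%), 8 in HOXC (45.0%) and 7 in HOXD (68.0%). HOXA had the smallest share of its window in such intervals and HOXD the largest. In the mean over libraries, deposited peaks covered 4.29% of the HOXA window, 2.49% of HOXB, 5.17% of HOXC and 1.23% of HOXD. The genome as a whole was covered to 1.645%, so only HOXD lay below it. Closed intervals were not counted in the flanks or the genome. Whether they are longer or more frequent in the HOX windows was not tested.

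The longest closed interval of all was 31.6 kb in HOXD (chr2:177011141-177042789), on the HOXD1 side of the window. It lay within the 2 parts next to HOXD1 when the window was cut into 4 equal parts, and those 2 parts held no top-ranked peak in any of the 24 libraries. The longest interval of HOXB (chr17:46634673-46651403, 16.7 kb) also lay toward the low-numbered side, across the border of the first and second of its 4 parts counted from HOXB1. The second part was free of top-ranked peaks in 18 libraries. That side was not closed as a whole, since top-ranked peaks covered 1.145, 0.218, 1.542 and 0.996% of the parts from HOXB1 on (means over libraries). In HOXC the longest interval (chr12:54356469-54371546, 15.1 kb) ended close to the open region at 53.0 kb. In HOXA it measured 8.6 kb (chr7:27180103-27188684) and ended at the border of the region at 68.9 kb.

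The first comparison between LNCaP and RES-A asked whether a whole cluster was more open in 1 subline, and no difference passed the test with top-ranked peaks. HOXC was covered to 2.54% ± 0.68 in LNCaP and 2.72% ± 0.325 in RES-A (n = 12 each, difference 0.187, adjusted p = 0.724 by a two-sided permutation test of the subline labels within treatments). Without the 2 shallow libraries this difference was −0.0637 (adjusted p = 0.894). HOXA differed by 0.108 (1.22% ± 0.472 and 1.33% ± 0.332, adjusted p = 0.724), HOXB by −0.00644 (0.979% ± 0.312 and 0.972% ± 0.248, adjusted p = 0.947) and HOXD by −0.13 (0.2% ± 0.273 and 0.07% ± 0.104, adjusted p = 0.68). The result for HOXC depended on the peaks used: over all deposited peaks its coverage was 1.42 percentage points higher in RES-A (adjusted p = 0.0268), a count that also moves with depth. Relative to the flanks, coverage was lower in RES-A for HOXB (−0.248, adjusted p = 0.0244 by the same permutation test) and HOXD (−0.214, adjusted p = 0.0244). The flanks themselves were covered more in RES-A, while HOXB itself differed by only −0.00644. The flanks of HOXB were covered to 1.28% ± 0.275 in LNCaP and 1.52% ± 0.0972 in RES-A. Those of HOXD were covered to 0.492% ± 0.155 and 0.576% ± 0.0346. With the 25000 strongest peaks, coverage was higher in RES-A for HOXA (0.274, adjusted p = 0.0382).

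Single regions did differ between sublines, in both directions. A region was compared when top-ranked in 6 to 18 of the 24 libraries, using Fisher's exact test on 12 LNCaP and 12 RES-A libraries and Benjamini-Hochberg adjustment over the 38564 such regions of the genome. Of these, 57.7% were called, 31.6% more often top-ranked in RES-A and 26.1% in LNCaP. Of the 15 HOX regions compared, 8 were called, 4 in each direction, a share near that of the genome. In a bulk assay, fewer cells with an open site and less opening per cell cannot be told apart.

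The clearest gains in RES-A were a pair of HOXC regions on the HOXC4 side, the anterior end of that cluster. The region at 116.7 kb (chr12:54436488-54436866) was top-ranked in 0 of 12 LNCaP and 11 of 12 RES-A libraries (Fisher's exact test, adjusted p = 7.8e-05). In RES-A its fold enrichment ran from 6.9 through a median of 8.53 to 10.2. In LNCaP only 2 of 12 lists had a peak there at any rank, with folds of 3.77 (DMSO replicate 2) and 2.71 (ENZ replicate 2). The sublines did not overlap, but the region was set by top-ranked peaks of RES-A libraries alone, which favours this. The LNCaP lists without a peak included the longest of all, DHT replicate 2 with 274578 peaks, and the 2 shallow ones. Whether depth played a part was not tested.

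The region at 126.7 kb (chr12:54446488-54446862) followed the same pattern, again top-ranked in 0 of 12 LNCaP and 11 of 12 RES-A libraries (Fisher's exact test, adjusted p = 7.8e-05). Its fold ran from 5.88 through 8.37 to 10.0 in RES-A. A peak of any rank was present in 5 of 12 LNCaP lists, with a highest fold of 4.42, so that here too the sublines did not overlap. This region as well was set by top-ranked peaks of RES-A libraries alone. The region began 212 bp beyond the end of the region at 126.0 kb, which was top-ranked in all 24 libraries, and no single peak of any list spanned both. An open site shared by both sublines therefore had a neighbour that was strong in RES-A alone.

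These 2 RES-A regions were open under each treatment. At 116.7 kb the DMSO folds of RES-A were 8.68, 7.44 and 7.05. DHT gave 7.71, 8.39 and 8.12, ENZ alone 9.13, 9.91 and 10.2, and the combination 9.05, 8.73 and 6.9. The 3 ENZ values lay above all those of the other treatments, which overlapped each other, but the gap was only 9.13 against 9.05. At 126.7 kb the DMSO folds were 6.48, 7.13 and 7.4. DHT gave 9.11, 10.0 and 8.51, ENZ alone 9.36, 9.29 and 8.09, and the combination 8.31, 8.43 and 5.88. Here the DMSO values lay below all those with DHT and ENZ, a difference that was not tested because both regions lack a peak in most LNCaP lists. Of the DHT+ENZ libraries, replicate 3 was the lowest at both regions. These folds are not centred, and the median fold of all peaks differed between RES-A lists. It ran from 3.78 in that replicate to 5.03 in DHT replicate 1. The share of regions over the genome with such orders of treatments was not counted.

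The third HOXC region more often open in RES-A, at 102.2 kb (chr12:54422001-54422388), was top-ranked in 4 of 12 LNCaP and 12 of 12 RES-A libraries (Fisher's exact test, adjusted p = 0.00395). It was not absent from LNCaP, since 11 of 12 lists had a peak, but at lower fold: the LNCaP median was 5.24 with a maximum of 7.92, and RES-A ran from 6.24 through 7.42 to 8.55. Only 80 bp separated it from the region at 102.7 kb (chr12:54422469-54422879), which was top-ranked in 9 LNCaP and 7 RES-A libraries and was not called. The part of the HOXC window next to HOXC4, 1 of 4 equal parts, was covered to 2.12% ± 0.51 in LNCaP and 3.91% ± 0.581 in RES-A. That part holds the regions at 116.7 and 126.7 kb and gives no separate evidence.

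Within single treatments, regions top-ranked in all 3 libraries of one subline and none of the other were counted, and these counts share their libraries with the test above and were not tested. Of the regions named for them, HOXA 116.4 kb was compared over all treatments and not called (7 of 12 LNCaP and 11 of 12 RES-A libraries, adjusted p = 0.221). HOXC 126.7 kb was among the RES-A regions under DMSO (2 of 35, 8.14% of regions over the genome, with HOXA 116.4 kb), DHT (3 of 30, 7.29%, with HOXC 102.2 and 116.7 kb) and ENZ (2 of 37, 7.56%, with HOXC 116.7 kb). Under DHT+ENZ the RES-A regions (3 of 32, 8.38%) included HOXC 102.2 and 116.7 kb. For LNCaP they were HOXC 21.1 and 72.8 kb under DMSO (2 of 35, 6.38%), HOXB 97.0 kb under DHT (1 of 30, 5.26%), none under ENZ (0 of 37, 3.38%), and HOXA 68.9 and HOXC 21.1 and 72.8 kb under DHT+ENZ (3 of 32, 7.26%).

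**Figure D3:**
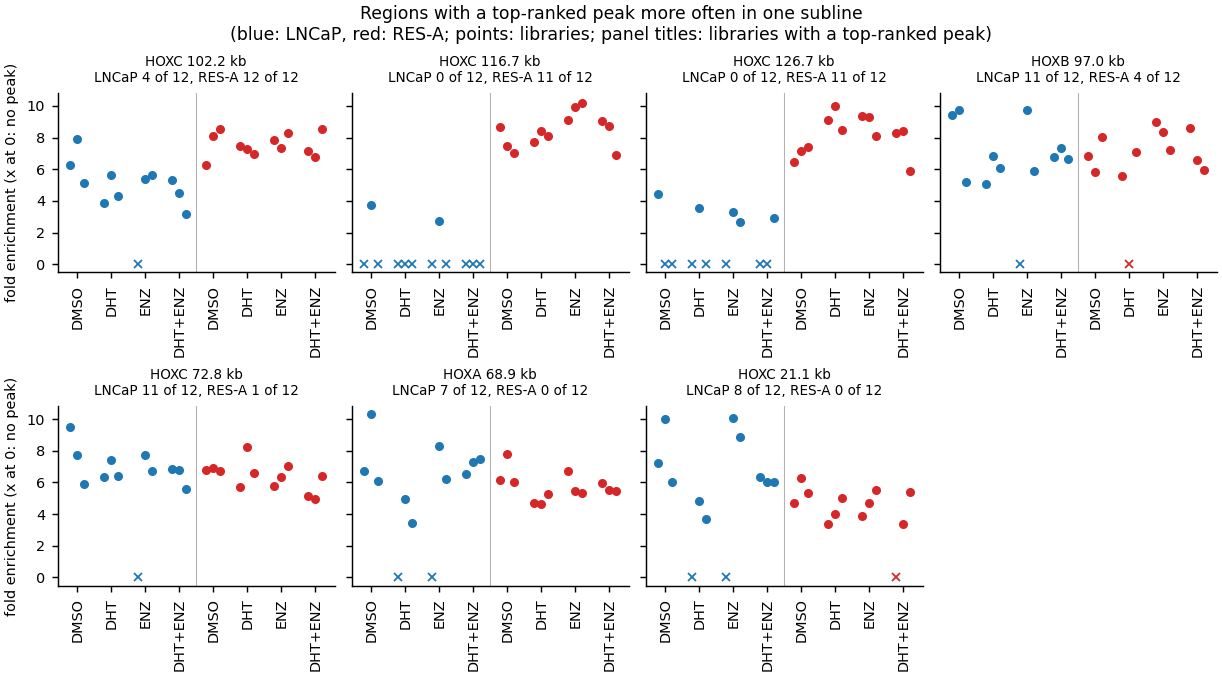
Fold enrichment (vertical axis) in each of the 24 libraries at 7 of the 8 HOX regions that were called between sublines, by treatment (horizontal axis, LNCaP left in blue, RES-A right in red; a cross at 0 means no deposited peak). At HOXC 116.7 and 126.7 kb all RES-A points lie above all LNCaP points, whereas at HOXC 72.8 kb the folds overlap although the numbers of top-ranked peaks are 11 and 1.

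In the other direction, the region at HOXC 21.1 kb (chr12:54340946-54341308), on the HOXC13 side, was top-ranked in 8 of 12 LNCaP and 0 of 12 RES-A libraries (Fisher's exact test, adjusted p = 0.00395). Deposited peaks were present in 10 LNCaP and 11 RES-A lists. In LNCaP the fold, with lists without a peak counted as 0, had a median of 6.04 and a maximum of 10.1, while in RES-A the median was 4.72 and the maximum 6.31. The region at HOXA 68.9 kb (chr7:27188685-27189170), at the edge of the longest closed interval of HOXA, was top-ranked in 7 of 12 LNCaP and 0 of 12 RES-A libraries (adjusted p = 0.0104), with median folds of 6.38 and 5.5. Both regions were listed in nearly all RES-A libraries, below the rank limit. They were set by top-ranked peaks of LNCaP libraries alone, which favours this direction.

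The regions at HOXC 72.8 kb (chr12:54392646-54392953) and HOXB 97.0 kb (chr17:46696849-46697153) were called for LNCaP by rank although their median deposited folds were close in the sublines. The first was top-ranked in 11 of 12 LNCaP and 1 of 12 RES-A libraries (Fisher's exact test, adjusted p = 0.000546), yet its median fold was 6.76 in LNCaP and 6.51 in RES-A, and 12 of 12 RES-A lists had a peak. The second was top-ranked in 11 and 4 libraries (adjusted p = 0.0205), with median folds of 6.7 and 6.96. Over the 29058 regions of the genome with a peak in every list, the median fold was 7.29 in LNCaP and 9.28 in RES-A. Relative to the median region of each library, both were lower in RES-A when regions with a peak in at least 20 lists were tested (log2 difference −0.45 at 72.8 kb, limma adjusted p = 6.14e-05, and −0.31 at 97.0 kb, adjusted p = 0.00644). At 72.8 kb the mean percentile of the peak's −log10 p within its own list was 86.3 in LNCaP and 68.1 in RES-A. This percentile restates the ranking behind the call. The heights come from the same libraries that picked these regions, so neither is separate evidence.

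Some weak regions were listed in LNCaP and hardly in RES-A, and they were too rarely top-ranked to be compared. The region at HOXD 2.0 kb (chr2:176941675-176942381), on the HOXD13 side, had a deposited peak in 11 of 12 LNCaP and 2 of 12 RES-A lists, and was top-ranked in 2 and 0 libraries. Its highest fold in LNCaP was 8.77. HOXA 104.0 kb had a peak in 11 LNCaP and 3 RES-A lists. These 2 were picked after their values were seen and were given no test. Both became regions only through top-ranked peaks of LNCaP libraries, a choice that by itself favours LNCaP. Over all deposited peaks, 12 of 45 HOX regions were called for RES-A and 6 for LNCaP (26.7% and 18.8% of all regions).

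**Figure D4:**
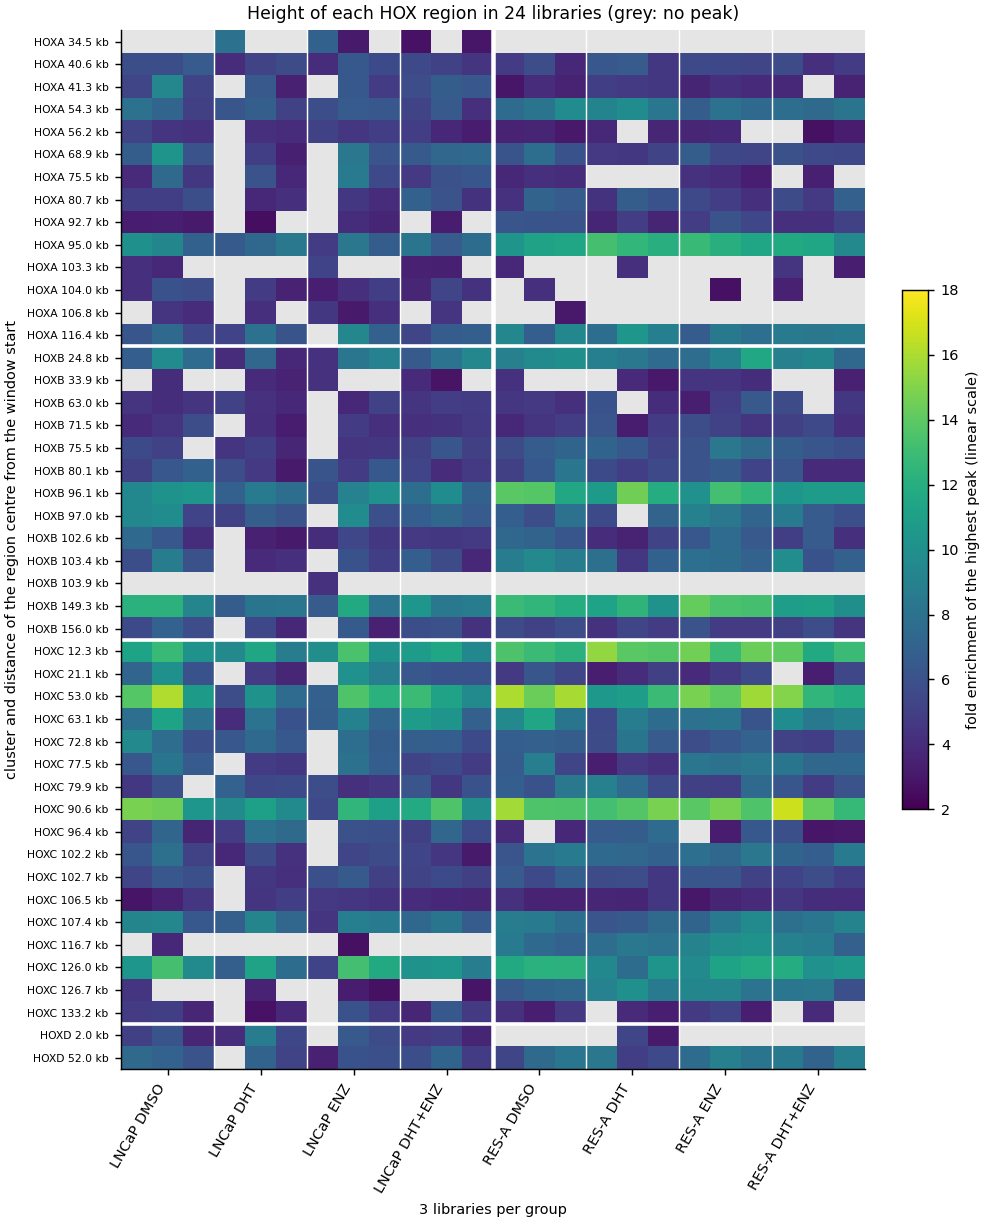
Fold enrichment of the highest deposited peak (colour, linear scale) for 46 of the 48 HOX regions (rows, by cluster and distance from the window start) in the 24 libraries (columns, 3 per group; the thick line parts LNCaP, left, from RES-A, right). Grey means no peak, and 2 regions of HOXA are not drawn. HOXC 116.7 and 126.7 kb are mostly grey in LNCaP and filled in RES-A, HOXD 2.0 kb the reverse, and grey cells gather in LNCaP DHT replicate 1 and LNCaP ENZ replicate 1.

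Height was compared where every list had a peak, which held for 13 of the 48 HOX regions. The 2 RES-A regions of HOXC are not among them. Log2 fold enrichment, centred on the median region of each library, was tested with limma, so that differences are relative to the median region. Between sublines 42.2% of the 29058 regions passed an adjusted p of 0.05, 18.5% higher and 23.7% lower in RES-A. Of the 13 HOX regions 5 passed, 1 higher and 4 lower, and the median log2 difference was 0.02 over the HOX regions and −0.01 over all. With a peak required in at least 20 lists, 35 HOX regions were tested, of which 3 were higher and 13 lower in RES-A (24.8% and 25.8% of all regions).

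HOXA 95.0 kb, the steady region toward HOXA13, was higher in RES-A (log2 difference 0.29, SE 0.06, limma adjusted p = 0.00076). Its fold ran from 4.75 through 7.49 to 10.0 in LNCaP and from 9.5 through 11.6 to 13.3 in RES-A, and the difference without centring was 0.64. The region at HOXA 40.6 kb (chr7:27160371-27160828) was lower (−0.39, SE 0.08, adjusted p = 0.000505), as were HOXC 107.4 kb (chr12:54427188-54427642; −0.28, adjusted p = 0.00447), HOXC 63.1 kb (chr12:54382844-54383391; −0.26, adjusted p = 0.0245) and HOXC 126.0 kb (−0.20, adjusted p = 0.0481). All 4 lower values were relative to the higher median fold of RES-A: without centring 0 of the 13 were lower and 8 higher (4.25% and 69.7% of all regions), HOXA 40.6 kb came to −0.04, and the 3 HOXC regions turned positive (0.07, 0.09 and 0.15). The call at HOXC 126.0 kb was lost in 18 of the 24 repeats that left out 1 library, and quantile normalization ended those at HOXA 40.6 kb (−0.21, adjusted p = 0.0658) and HOXC 63.1 kb (−0.24, adjusted p = 0.061). The steady regions HOXC 12.3, 53.0 and 90.6 kb differed by −0.02, 0.02 and 0.03 when centred.

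The treatment comparisons asked whether androgen, the antagonist or both changed the openness of the clusters over 18 h. In coverage by top-ranked peaks none of 12 comparisons passed (exact permutation tests of 3 against 3 libraries, for which 0.1 is the smallest p; all adjusted p at least 0.8). The groups did not overlap in 1 of the 12, HOXB of RES-A with DHT, where coverage was 1.09, 1.16 and 1.3% with DMSO and 0.774, 0.668 and 0.876% with DHT. The difference was −0.41 (exact p = 0.1, the value that any full separation of 3 against 3 gives). A full separation in 1 of 12 is near the share such tests give without an effect. In LNCaP the HOXB values were 0.732, 1.27 and 1.49% with DMSO and 0.573, 0.947 and 0.619% with DHT, which overlapped (−0.454, exact p = 0.2).

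The other clusters moved less with DHT relative to their spread. HOXA differed by −0.105 in LNCaP and −0.188 in RES-A, HOXC by −0.578 and −0.238, and HOXD by 0.351 and 0.0631. Over the 4 clusters together, ENZ minus DMSO was −0.0855 in LNCaP and −0.127 in RES-A, and DHT+ENZ minus DHT was 0.292 and 0.148 (exact p from 0.4 to 0.9).

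Call patterns between treatments were followed as regions top-ranked in all 3 libraries of one group and in none of the other, with no test. In RES-A, 2 of 25 HOX regions were top-ranked with DMSO and not with DHT (3.4% of regions over the genome), HOXC 102.7 kb and HOXB 103.4 kb (chr17:46703041-46703687), and 0 with DHT and not with DMSO (5.6%). HOXB 103.4 kb was also the region found with DMSO and not with ENZ (1 of 24, 0.495%). In RES-A it stood at folds of 8.73, 9.53 and 8.73 under DMSO, 7.88, 4.62 and 6.98 under DHT and 7.83, 7.64 and 7.0 under ENZ alone. DHT+ENZ gave 9.83, 6.05 and 6.93, the first of which was the highest of all 12, so only the DHT and ENZ groups lay wholly below DMSO. In LNCaP, HOXC 21.1 and 102.2 kb were top-ranked with DMSO and not with DHT (2 of 36, 1.73%), and HOXA 116.4 kb (chr7:27235716-27237021) with DHT and not with DMSO (1 of 36, 2.15%).

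Adding ENZ to DHT gave 3 such regions. HOXC 21.1 kb and HOXA 68.9 kb were top-ranked with DHT+ENZ and not with DHT in LNCaP (2 of 35, 1.3%), and HOXC 77.5 kb (chr12:54397339-54397681) in RES-A (1 of 24, 1.82%). At HOXC 21.1 kb the LNCaP folds were 7.23, 10.0 and 6.03 under DMSO and 6.32, 6.04 and 6.0 under the combination, while DHT alone gave 4.8, 3.72 and in 1 library no peak. The DHT libraries lay below both other groups, and 1 of the 3 was a shallow library. The 2 comparisons share the DHT libraries. No region was found with ENZ and not with DMSO (LNCaP 0 of 41, 0.206%; RES-A 0 of 24, 0.545%), with DMSO and not with ENZ in LNCaP (0 of 41, 0.625%), or with DHT and not with DHT+ENZ (LNCaP 0 of 35, 1.4%; RES-A 0 of 24, 2.33%).

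HOXC 77.5 kb had the same order in RES-A, where DMSO gave folds of 6.65, 8.85 and 5.32, DHT 3.34, 4.68 and 4.27, ENZ alone 8.28, 8.06 and 8.37, and the combination 8.21, 7.43 and 7.41. In these folds, which are not centred, the DHT values lay below those of the 3 other treatments, with no overlap. How many regions of the genome show such an order was not counted. The region lacked a peak in 2 LNCaP lists and so was not among the 13 tested for height. When regions with a peak in at least 20 lists were tested (limma, 35 HOX regions), its log2 difference was −0.72 for DHT minus DMSO (adjusted p = 0.00521) and 0.98 for DHT+ENZ minus DHT (adjusted p = 0.00631). At that setting HOXB 102.6 kb was also lower with DHT in RES-A (−0.69, adjusted p = 0.0106) and HOXC 96.4 kb higher (0.89, adjusted p = 0.0285). These are 2 lower and 1 higher of 35 with DHT (4.45% and 7.43% of all regions) and 1 higher of 35 with DHT+ENZ (0.634%).

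With both sublines together, the 6 DHT and 6 DMSO libraries were compared by Fisher's exact test. None of 14 HOX regions passed (smallest adjusted p = 0.368), and 0.0% of the 43637 regions of the genome did, so that this test found nothing anywhere at this number of libraries. At an unadjusted p of 0.05, 1 of the 14 HOX regions and 4.12% of all regions passed.

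The heights of the 13 regions gave 0 calls in each treatment contrast. With DHT the genome-wide share of calls by limma was 8.69% in RES-A and 1.21% in LNCaP, and at an unadjusted p of 0.05 there were 3 and 1 of the 13 HOX regions (19.1% and 16.5% of all regions). The median log2 difference of the 13 was −0.13 in RES-A and 0.01 in LNCaP, against −0.02 and 0.01 over all regions. The region nearest to the threshold was HOXC 53.0 kb, one of those open in every library.

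At HOXC 53.0 kb the RES-A folds were 16, 14.4 and 15.9 with DMSO and 10.5, 10.9 and 12.9 with DHT. In LNCaP they were 13.8, 16.1 and 10.7 with DMSO and 5.75, 10.2 and 7.58 with DHT. In these folds, which are not centred, the DHT libraries lay below the DMSO libraries in both sublines, with no overlap. The share of regions over the genome with such an order was not counted. The log2 difference was −0.42 in RES-A (SE 0.14, limma adjusted p = 0.0553) and −0.41 in LNCaP (SE 0.14, adjusted p = 0.118), and neither passed. In RES-A the region passed without the 2 shallow LNCaP libraries, which enter only the shared estimate of the spread (−0.42, adjusted p = 0.0106), while in LNCaP the same setting left −0.28 (adjusted p = 0.25). With background as a covariate it passed in both sublines (LNCaP −0.41, adjusted p = 0.0404, and RES-A −0.36, adjusted p = 0.0432), and without centring in LNCaP alone (−0.80, adjusted p = 0.0119, and RES-A −0.43, adjusted p = 0.381). With DHT+ENZ the folds were 15, 12.5 and 11.9 in RES-A and 12.9, 11.2 and 9.65 in LNCaP, overlapping the DHT values in both sublines.

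With DHT, HOXC 107.4 kb had centred values of opposite sign, 0.30 in LNCaP (limma adjusted p = 0.333) and −0.29 in RES-A (adjusted p = 0.309). Neither passed, and without centring both were negative (−0.09 and −0.31). The difference of the DHT effects between sublines was −0.59 (SE 0.22, limma adjusted p = 0.31) and did not pass; 0 of 13 passed in this contrast (0.434% of all regions), with 1 at an unadjusted p of 0.05 (10.0%). For DHT+ENZ against DHT the genome-wide share was 0.0619% in LNCaP and 0.637% in RES-A, and at an unadjusted p of 0.05 there were 4 and 2 of the 13 HOX regions (9.35% and 10.3% of all regions). For ENZ against DMSO the share was 0.0% in both sublines, and 0 and 1 of the 13 had such an unadjusted p (8.37% and 3.41%).

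**Figure D5:**
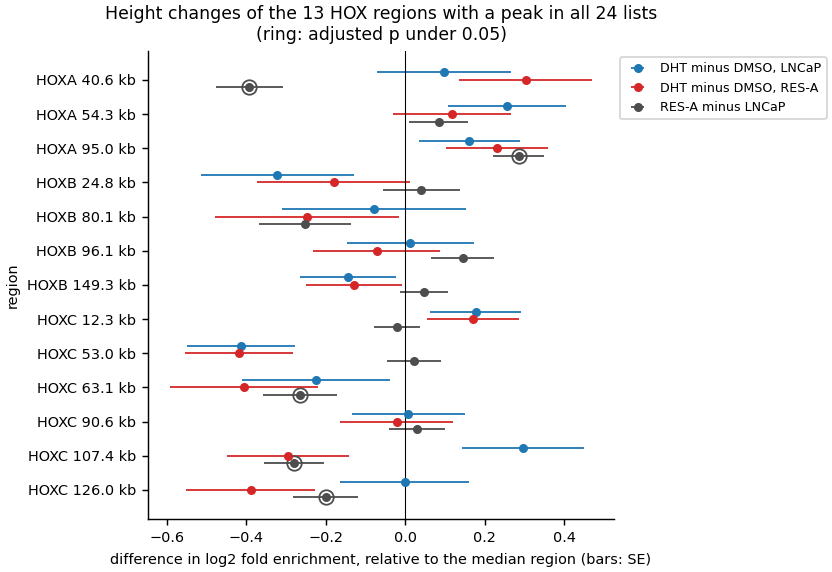
Difference in log2 fold enrichment relative to the median region (horizontal axis, bars are SE) at the 13 HOX regions with a peak in all 24 lists (vertical axis), for DHT minus DMSO in LNCaP (blue) and RES-A (red) and for RES-A minus LNCaP (grey). Rings mark adjusted p under 0.05, which occur for the subline contrast only; HOXC 53.0 kb is lowest with DHT in both sublines.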

How the data were processed

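FAIRE-seq libraries of LNCaP and RES-A (3 in each of 8 groups, grouped by GEO's labels) were sequenced as single-end reads, and per the labels the authors processed them with BWA 0.7.8-r455, Picard 1.118 and MACS2 2.1.0 on hg19, 1 peak list per library. The peak caller's options and any control library are not given in the sources used here. Each deposited list holds, per peak, its length in bp, the pileup signal at its summit, the −log10 p and −log10 q values and the fold enrichment, a ratio of summit pileup to local background, each after adding 1 read. Read totals are not in these columns, and depth was taken as the lowest local background recovered from pileup and fold. No intervals for counting error were given.

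Peaks on chromosomes 1 to 22, X and Y were ranked by −log10 p, and the first 50000 of each library were merged where they overlapped by at least 1 bp. A library counted as top-ranked at a region holding 1 of these peaks. Tests used Python 3.11.15 with scipy 1.17.1 and limma 3.58.1 in R 4.3.3. Libraries were the replicates. In the tests of single regions (calls and heights), p-values were adjusted over all regions tested in the genome. In the tests of coverage, they were adjusted only within each set of comparisons. These sets were the clusters for the sublines, the pairs of clusters, and the treatment comparisons. Code was tested on simulated calls and heights. The named regions are, per cluster, the 3 open in most libraries, the longest closed interval, up to 3 per direction by Fisher's exact test, up to 5 per direction by limma, and all separated 3 against 3 calls where 5 or fewer. Of the HOXA regions 2 are in the counts but are not reported here by themselves. The members and the lists were chosen with earlier results of these data known. No replicate block was used. Alternatives were other peak numbers, all peaks, q under 0.01, flanks, tiles, overlap, normalization, depth as covariate, the replicate block and leaving out libraries. Columns of other samples numbered 0. No sequence is shown, since no genome of the build of the lists was used here.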

Additional observations from a re-analysis of the deposited data

How the results depend on the processing

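A recomputed test was taken as kept if its direction and its side of the threshold held, and a count of regions if it stayed within 1.5 times. Outside the settings that left out 1 library, 244 of 325 recomputed values were kept, and 1023 of 1068 were when 1 library was left out. The calls at the 8 regions called between sublines held in 192 of 192 of these repeats and without the 2 shallow libraries, and all changes below have causes that were not tested. With the replicate block (McNemar's exact test) 3 regions were called for each subline, HOXB 97.0 kb (adjusted p = 0.0668) being lost for LNCaP; the block moved no other count of calls by over 1.5 times. Same-numbered libraries correlated in their deviations from the group means by a mean of 0.109 within LNCaP (−0.155 to 0.351; other numbers −0.0508), 0.0164 within RES-A (other numbers −0.00818) and 0.0174 between sublines, and 17 of 24 libraries were closest to their own number within their subline, which is a hint from the data and not the design. By subline, 25000 peaks gave 2 regions for RES-A and 0 for LNCaP of 4 tested (28.4% and 22.3% of all regions), all deposited peaks gave 12 and 6 of 45 (26.7% and 18.8%), and tiles of 500 bp gave 4 and 7 of 28 (28.8% and 22.4%). Coverage by subline came, with 25000 peaks, to 0.274 in HOXA and −0.108 in HOXC. With all deposited peaks it came to −0.427 in HOXA, 0.387 in HOXB, 1.42 in HOXC and 0.136 in HOXD, and with q under 0.01 to −0.426, 0.378, 1.44 and 0.1. Relative to the flanks it came to −0.248 in HOXB, −0.0519 in HOXC and −0.214 in HOXD. As a share of the peaks it came to −0.00267 percentage points in HOXA and −0.000333 in HOXC, and without the shallow libraries to −0.0012 in HOXA and −0.0637 in HOXC. The order of HOXA and HOXB turned with 25000 peaks (−0.13).

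DHT minus DMSO in coverage became, with 25000 peaks, 0.0329 (LNCaP) and 0.0326 (RES-A) in HOXA. In HOXD it became −0.391 (LNCaP) and −0.372 (RES-A) with all deposited peaks, and −0.363 and −0.451 with q under 0.01. In HOXC of RES-A it was 0.0112 relative to the flanks, and in HOXA of LNCaP it was 0.0688 without the shallow libraries. ENZ minus DMSO over the 4 clusters was in RES-A 0.00328 with 25000 peaks, 0.0171 with all and 0.052 with q under 0.01, and in LNCaP 0.104 relative to the flanks, 0.000667 as a share and 0.217 without the shallow libraries. Leaving out 1 library gave ranges of −0.046 to 0.0405 for HOXB by subline, −0.333 to 0.0688 for DHT in HOXA of LNCaP, −0.433 to 0.0911 for DHT in HOXC of RES-A, and −0.252 to 0.217 (LNCaP) and −0.321 to 0.0109 (RES-A) for ENZ.

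Counts of regions separated 3 against 3 moved as follows. With 25000 peaks, RES-A DMSO not DHT gave 1, RES-A ENZ not LNCaP ENZ gave 1, and 9 other counts above 0 went to 0. With all deposited peaks, LNCaP DHT not DMSO, LNCaP DMSO not DHT, LNCaP DHT+ENZ not DHT, LNCaP DHT not RES-A DHT and RES-A DMSO not ENZ gave 0, LNCaP DMSO not RES-A DMSO and RES-A ENZ not DMSO gave 1, RES-A DHT+ENZ not DHT gave 2, RES-A DMSO not DHT gave 5, and RES-A not LNCaP gave 7 with DMSO, 5 with DHT, 7 with ENZ and 5 with DHT+ENZ.

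In the heights, the scale without centring, chosen after seeing the data, gave 8 higher and 0 lower regions in RES-A and 4 lower with DHT in LNCaP. HOXC 107.4, 126.0 and 63.1 kb turned to 0.0748, 0.154 and 0.0905. Quantile normalization left 2 lower by subline. With background as a covariate, 1 region was lower with DHT in each subline, and without the shallow libraries 2 were in RES-A. Regions with a peak in at least 20 lists gave 3 higher and 13 lower by subline, 1 higher and 2 lower with DHT in RES-A, and 1 higher with DHT+ENZ. Leaving out 1 library gave 2 to 5 lower by subline, the lowest without RES-A DMSO replicate 3 or RES-A DHT replicate 1, and 0 to 2 lower with DHT in RES-A, the highest without LNCaP ENZ replicate 1. The subline call at HOXC 126.0 kb was lost in 18 of these repeats (−0.266 to −0.163) and that at HOXC 63.1 kb in 3 (−0.311 to −0.214). LNCaP DHT replicate 1 and LNCaP ENZ replicate 1 had the lowest background and the fewest peaks in the HOX windows (29 and 30).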
